A study of Mus musculus with 20 samples.

Results

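The genes described here are 5 enzymes that break down fatty acids, Cpt1a, Hadha, Acadl, Acadm and Hsd17b4. The 2 spotted cDNA array designs together hold 6970 named genes, 943 of them on both. Every clone annotated to the 5 symbols on either design was taken, in liver and brown adipose tissue. This gave 7 clones of 7680 per design: 1 each of Acadl, Acadm and Hsd17b4 on the first design, and 1 each of Cpt1a, Hadha, Acadl and Hsd17b4 on the second. The genes were chosen by their line ratios on these arrays, with the liver and brown adipose means in view. Those ratios are therefore given as a description, with no p-value.

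The arrays compare the F line, an obese mouse selection line, with the Fob3b line, which carries the Fob3b obesity locus of a lean line on chromosome 15 in the F background. No treatment is given for either line, nor are the age and sex of the animals or the number of animals in a pool. RNA was pooled, with 2 pools per line for liver, 2 per line for brown adipose tissue on the first design and pool 1 alone for brown adipose tissue on the second. Pools of equal number were paired on an array and the dyes then swapped, which makes n = 2 pool pairs per tissue on the first design and in liver on the second. Further liver arrays were 2 of the first design with the same pool in both channels, 2 of the second that paired pools of unequal number across the lines, and 2 that compared the pools of a single line. The second-design brown adipose arrays are described as F against F, but their channel labels name Fob3b in 1 channel; the channel labels were used. Brown adipose ratios on that design rest on those 2 arrays alone, and the first design gives the brown adipose ratios without them. The array with Fob3b pool 1 in both channels likewise has a description that names the F line too.

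Each value is a log ratio of the dyes, read as log2, set to 0 at the median clone of its array and turned to Fob3b over F. The base is not stated, and a fold rests on that reading. Which dye was the numerator is not stated. The positive side means more RNA in Fob3b with red as numerator. With green as numerator it means more in F, and every sign would turn. The ratios carry no level, so neither tissue could be checked against its markers and no gene's level can be set against that of another. In pooled tissue RNA, fewer cells of a type and less RNA per cell cannot be told apart. First-design arrays had spot-to-spot correlations of 0.760 to 0.932, and second-design arrays 0.636 to 0.865. The printing block that a clone lay in accounted for 12.6% to 74.1% and 6.61% to 46.8% of the variance over clones, respectively. Agreement between arrays was lower than between spots. First-design dye swaps, once turned, correlated at 0.16 and -0.29 for liver pool pairs 1 and 2, and at -0.23 and -0.60 for the brown adipose pairs. The pool pairs themselves correlated there at -0.20 for liver and -0.24 for brown adipose. Second-design swaps gave 0.08 and 0.40 for the liver pairs and 0.47 for brown adipose, and its liver pairs correlated at 0.23. Without intensities, the number of arrays limits the precision.

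Fatty acid oxidation shortens acyl-CoA chains to acetyl-CoA and passes the electrons to the respiratory chain or, in peroxisomes, to oxygen. The carnitine palmitoyltransferase Cpt1a, on the mitochondrial outer membrane, commits long chains to entry and is inhibited by malonyl-CoA, the first committed product of fatty acid synthesis. Acadl and Acadm are the long-chain and medium-chain acyl-CoA dehydrogenases of the first step in the matrix. Hadha is the alpha subunit of the trifunctional protein, which carries the hydratase and long-chain hydroxyacyl-CoA dehydrogenase activities. Hsd17b4 is the D-bifunctional protein, which does the matching steps in peroxisomes. Liver uses the pathway to make ketone bodies in fasting, and brown adipose tissue uses it to fuel heat production.

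In liver the means of all 7 clones lay on the negative side, from -0.74 to -0.02, and in brown adipose tissue the means of all 7 lay on the positive side, from 0.10 to 0.39. Over all genes, 55.1% of first-design liver means and 48.6% of second-design ones were on the negative side. In brown adipose tissue 59.3% and 56.1% were on the positive side. Of the 28 single-array values in liver, crossed-pool arrays aside, 22 were negative, and of the 20 in brown adipose tissue 16 were positive. The genes were chosen with these ratios in view, and nothing is read from the counts. With each array left uncentred, the second-design brown adipose ratios of Cpt1a, Acadl and Hsd17b4 became -0.17, -0.23 and -0.26, where the median gene lay at -0.33.

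**Figure D1:**
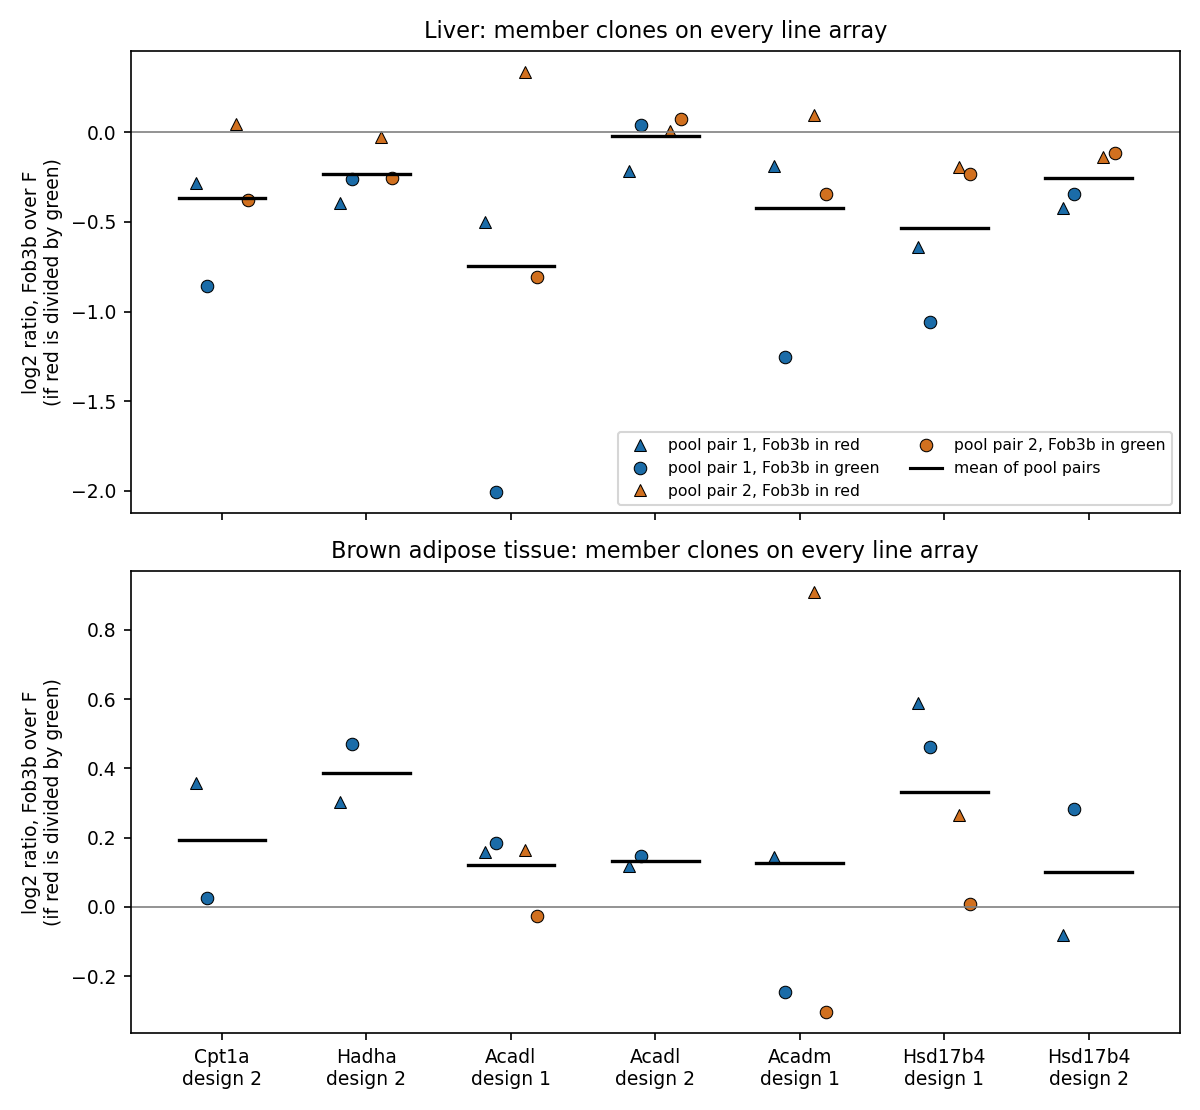
Log2 ratio of each clone on every line array in liver (top) and brown adipose tissue (bottom), with colour for the pool pair, shape for the dye that labelled Fob3b and a bar for the mean of the pool pairs. All 7 liver bars lie below 0, from -0.74 to -0.02, and all 7 brown adipose bars above it, from 0.10 to 0.39, while 6 of 28 liver points lie above 0 and 4 of 20 brown adipose points below it.

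With limma, 0 member clones had an adjusted p under 0.05 in any comparison tested. The share of all clones called was 0% in liver, in brown adipose tissue and for their difference on the first design, and 0.378% (29 of 7680 clones) in liver on the second. At an unadjusted p under 0.05 the first-design counts over all clones were 253 in liver, 65 in brown adipose tissue and 220 for the difference, and 768 in liver on the second design. Centring every block, or adding the arrays of unequal pools, brought the 29 calls to 0. On the first design, leaving out liver pool pair 1 gave 42 calls in liver and leaving out liver pool pair 2 gave 140; the lone liver pair is then assumed to vary like the brown adipose pairs, from which the spread comes.

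The stretches upstream of the start sites show what regulatory letters the genes share or lack. They come from RefSeq (assembly GRCm38.p6) for 4 of the 5 genes; none was used for Hsd17b4. The 250 bases before the start are given 5′ to 3′ on the gene's strand. The Cpt1a stretch is chr19:3323051-3323300 (plus strand), that of Hadha chr5:30154981-30155230 (minus), that of Acadl chr1:66863310-66863559 (minus) and that of Acadm chr3:153944644-153944893 (minus). Capitals mark AGGTCA, the half-site of nuclear receptors such as PPARα, GGGCGG, the GC box, and CCAAT, each on either strand and without overlaps here.
Cpt1a: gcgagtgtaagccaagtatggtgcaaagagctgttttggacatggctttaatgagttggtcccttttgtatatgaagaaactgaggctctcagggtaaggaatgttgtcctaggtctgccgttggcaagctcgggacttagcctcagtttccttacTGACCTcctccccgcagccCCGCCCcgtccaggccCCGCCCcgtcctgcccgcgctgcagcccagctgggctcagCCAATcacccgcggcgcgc
Hadha: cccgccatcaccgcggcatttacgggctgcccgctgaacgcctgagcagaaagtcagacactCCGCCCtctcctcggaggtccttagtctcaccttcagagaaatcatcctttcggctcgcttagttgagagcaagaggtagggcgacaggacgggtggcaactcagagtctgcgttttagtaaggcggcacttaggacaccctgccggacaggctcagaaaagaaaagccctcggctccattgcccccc
Acadl: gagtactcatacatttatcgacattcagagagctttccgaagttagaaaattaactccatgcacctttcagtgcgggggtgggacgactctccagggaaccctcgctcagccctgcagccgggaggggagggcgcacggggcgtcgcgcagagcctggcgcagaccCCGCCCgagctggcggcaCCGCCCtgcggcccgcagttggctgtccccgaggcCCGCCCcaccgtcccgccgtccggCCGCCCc
Acadm: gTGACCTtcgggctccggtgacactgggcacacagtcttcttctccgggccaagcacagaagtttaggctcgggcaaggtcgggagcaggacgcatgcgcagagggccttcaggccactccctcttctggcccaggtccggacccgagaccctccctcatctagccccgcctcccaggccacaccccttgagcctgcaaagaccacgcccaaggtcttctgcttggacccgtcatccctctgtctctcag
AGGTCA was found on the opposite strand in Cpt1a at -94 and in Acadm at -249, counted from -1 for the last base before the start. It occurs in 14% of the 32851 stretches of this length in the table. A direct repeat of AGGTCA with 1 base between the copies, which PPARα binds with its partner, was in none of the 4, and 0.0335% of all stretches hold it. GC boxes numbered 4 in Acadl, 2 in Cpt1a, 1 in Hadha and 0 in Acadm, against a share of 32.7% of all stretches with at least 1. Cpt1a alone had a CCAAT, at -19, a motif in 33.8% of all stretches. TGACGTCA, the cyclic AMP response element, was in none of the 4 and in 1.55% of all. The 4 stretches were 58.8% to 68% G and C, where the median of all was 52.4%. The stretch of Hadha shares 228 bases with that of Hadhb, the gene next to it on the other strand, which encodes the beta subunit. A match is a description of letters, and no binding was measured.

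Cpt1a, the carnitine palmitoyltransferase of the outer membrane, was measured on the second design. In liver it had -0.86 in pool pair 1 with Fob3b in green and -0.28 with Fob3b in red, and -0.38 and 0.05 in pool pair 2. The arrays with Fob3b in green were thus lower in both pairs, and 1 of 4 arrays lay on the positive side. The mean was -0.37 (SE 0.11, n = 2 pool pairs), or 1.29-fold, and the pool pairs gave -0.57 and -0.16. Its brown adipose values were 0.02 with Fob3b in green and 0.36 with Fob3b in red, a mean of 0.19. Both arrays were positive, and 86.8% of clones had a lower mean. Cpt1b, on the list of brown adipocyte markers, was measured on neither design.

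Hadha, of the trifunctional protein, was on the negative side on all 4 direct liver arrays of the second design. It had -0.26 and -0.39 in pool pair 1 with Fob3b in green and in red, and -0.25 and -0.02 in pool pair 2. Its mean was -0.23 (SE 0.09, n = 2 pool pairs), and the pairs gave -0.33 and -0.14. Of all clones on that design 9.93% had 4 negative liver arrays. With each printing block centred, Hadha had 0.05 on the liver array of pool pair 2 with Fob3b in red. Brown adipose tissue gave 0.47 and 0.30, with a mean of 0.39, the largest brown adipose mean of the 7 clones. Both arrays were positive, as for 29.9% of all clones. Hadhb, its partner subunit, was measured on the first design and had -0.22 (SE 0.19) in liver and 0.28 (SE 0.19) in brown adipose tissue, with limma adjusted p of 1.0 in both.

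Acadl, the long-chain dehydrogenase, was read by 1 clone on each design, and in liver these gave unlike values. On the first design it had -2.01 and -0.50 in liver pool pair 1 with Fob3b in green and in red, and -0.81 and 0.34 in pool pair 2. The mean of -0.74 (SE 0.24, n = 2 pool pairs) was the lowest of the 7 clones. It came mostly from the arrays with Fob3b in green, whose mean was -1.41 against -0.08 with Fob3b in red. The pool pairs gave -1.25 and -0.24. On the second design the other clone had 0.04 and -0.21 in pool pair 1 and 0.07 and 0.01 in pool pair 2, and its mean was -0.02 (SE 0.08). These values lay on both sides of 0, and 42.8% of clones had a lower mean.

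Both Acadl clones lay near each other in brown adipose tissue. The first-design clone had 0.18 and 0.16 in pool pair 1 with Fob3b in green and in red, and -0.026 and 0.17 in pool pair 2; its mean was 0.12 (SE 0.24). The second-design clone had 0.15 and 0.12, and its mean was 0.13. In pool pair 1, which both designs read, the clones thus gave 0.17 and 0.13 in brown adipose tissue but -1.25 and -0.09 in liver.

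Acadm, the medium-chain dehydrogenase, was on the first design alone. In liver it had -1.25 and -0.19 in pool pair 1 with Fob3b in green and in red, and -0.35 and 0.10 in pool pair 2. The mean was -0.42 (SE 0.22, n = 2 pool pairs), and as for Acadl the arrays with Fob3b in green were the lower ones, at a mean of -0.80 against -0.05. Its brown adipose values were -0.25 and 0.15 in pool pair 1 and -0.30 and 0.91 in pool pair 2, and their mean was 0.13 (SE 0.22). Both arrays with Fob3b in red were positive and both with it in green negative, so the dye orientations gave opposite sides. Without brown adipose pool pair 2 the value was -0.05.

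Hsd17b4, the peroxisomal enzyme, was read by 1 clone on each design and stood on the negative side on all 8 direct liver arrays, those of equal-numbered pools. On the first design it had -1.06 and -0.64 in pool pair 1 with Fob3b in green and in red, and -0.23 and -0.19 in pool pair 2. Its mean was -0.53 (SE 0.22, n = 2 pool pairs), with -0.85 and -0.21 for the pairs. On the second design it had -0.34 and -0.42 in pool pair 1 and -0.12 and -0.14 in pool pair 2; the mean was -0.26 (SE 0.09), with -0.38 and -0.13 for the pairs. Of all first-design clones 3.44%, and of second-design clones 9.93%, had 4 negative liver arrays. The median clone of its printing block lay at -0.23 in first-design liver and -0.05 in second-design liver, and with blocks centred the means were -0.32 and -0.21. Single arrays of pool pair 2 then lay on the positive side, at 0.73 and 0.04 with Fob3b in green and in red on the first design. On the second design, pool pair 2 with Fob3b in red gave 0.02.

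Brown adipose values of Hsd17b4 were 0.46 and 0.59 in pool pair 1 of the first design with Fob3b in green and in red, and 0.01 and 0.26 in pool pair 2. The mean was 0.33 (SE 0.22), all 4 arrays were positive, and 2.58% of clones on that design had 4 positive brown adipose arrays. The median clone of its block was at 0.21 here, and with blocks centred the mean was 0.13. On the second design it had 0.28 and -0.08, a mean of 0.10 with the orientations on opposite sides.

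The contrast between the tissues was fitted on the first design. Liver minus brown adipose tissue was -0.86 (SE 0.31) for Hsd17b4, -0.86 (SE 0.34) for Acadl and -0.55 (SE 0.30) for Acadm. Of all genes 60.5% had a negative difference. Every direct liver array lay below every brown adipose array for 1 of 3 first-design clones, Hsd17b4, against 0.547% of all clones. On the second design this held for 3 of 4, Hadha, Acadl and Hsd17b4, against 9.82%. The choice of the genes used these ratios, so nothing is read from the counts. Leaving out liver pool pair 1 gave Acadl -0.36, Acadm -0.25 and Hsd17b4 -0.54.

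The liver pools of the second design were compared in a further way, by pairing each Fob3b pool with the F pool of the other number. The mean of these 2 arrays covers the same 4 pools and both orientations, and so estimates the same line difference as the direct arrays. Cpt1a had -0.69 with Fob3b pool 1 in green and 0.68 with Fob3b pool 2 in red, a mean of -0.01 against -0.37 on the direct arrays. Hsd17b4 had -0.12 and 0.11, a mean of -0.005 against -0.26. The negative direct means of these genes were thus not seen in the crossed mean. Hadha kept the negative side, with -0.43 and 0.17 and a mean of -0.13 against -0.23, and Acadl had -0.09 and 0.17, a mean of 0.04 against -0.02. All 4 genes were negative on the crossed array with Fob3b in green and positive on that with Fob3b in red. Orientation and pool combination cannot be told apart on these 2 arrays. Of all clones 1.89% were negative on all 6 direct and crossed arrays, and none of the 4 genes was.

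**Figure D2:**
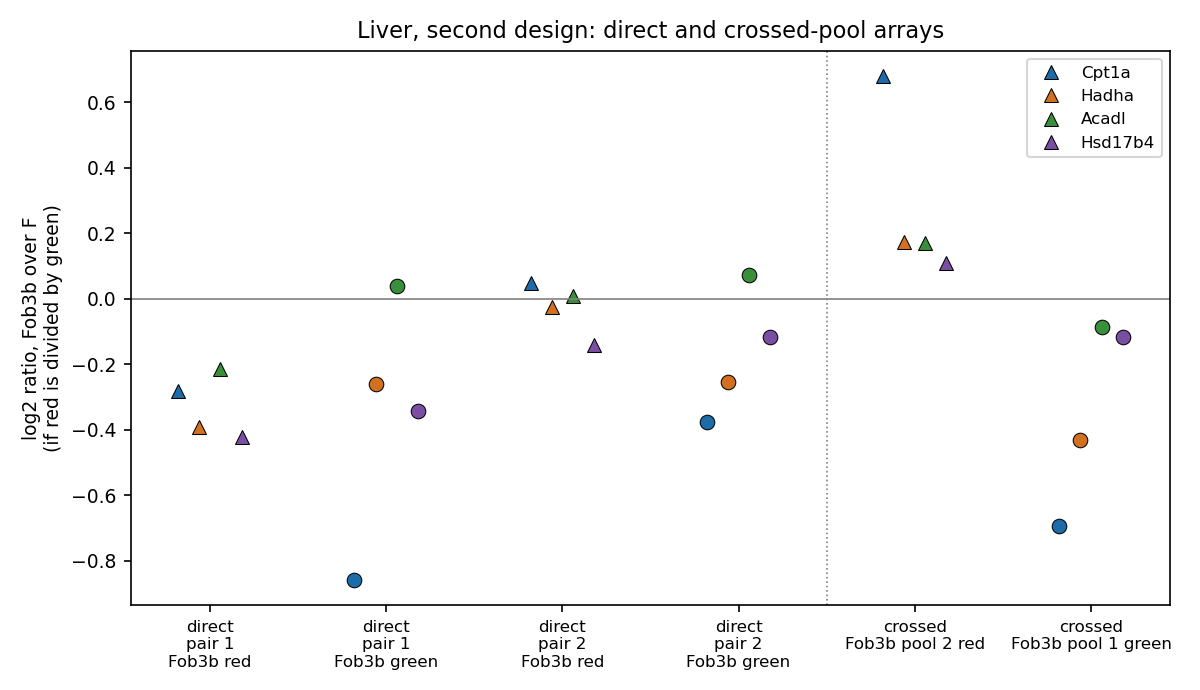
Log2 ratios of the 4 second-design genes in liver on each of the 4 direct arrays and the 2 crossed-pool arrays, with triangles for Fob3b in red and circles for Fob3b in green. Cpt1a ran from -0.86 to 0.05 on the direct arrays and had 0.68 and -0.69 on the crossed arrays.

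Across all clones the direct and the crossed mean correlated at 0.12. A fit of the 4 liver pools over all 8 arrays with a dye term gave -0.25 (SE 0.11) for Cpt1a, -0.20 (SE 0.07) for Hadha, -0.17 (SE 0.07) for Hsd17b4 and -0.0015 (SE 0.06) for Acadl. These estimates are nearer to 0 than the direct means for each gene. Their SE measure the scatter of single arrays around the fitted pools, not the spread between pools. They are therefore unlike the SE of the direct means.

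The spread between pools of a line was read on 1 array per line, with pool 2 in red. For Cpt1a, pool 2 over pool 1 was 0.19 within Fob3b and -0.08 within F. Hadha had 0.17 and -0.22, Hsd17b4 0.16 and -0.29, and Acadl -0.12 and 0.08. Differences between pools of 1 line thus reached the size of the line ratios of Hadha and Hsd17b4. With no swapped array, dye and pool cannot be told apart here. The direct pairs 2 and 1 differed by 0.41 for Cpt1a, 0.19 for Hadha and 0.25 for Hsd17b4. The same quantity from the between-pool arrays was 0.27, 0.39 and 0.46, on the same side for these genes, and -0.21 against 0.13 for Acadl. Over all 7680 clones these quantities correlated at -0.12.

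By their channel labels the self-self arrays of the first design hold no line difference, and the genes lay away from 0 there too. For the Fob3b array the description names the F line as well, so this rests on the labels. With F pool 1 in both channels Hsd17b4 had -0.68, Acadl -0.48 and Acadm -0.10. With Fob3b pool 1 in both, they had -0.29, -0.14 and -0.32. All 3 were on the negative side on both arrays, at 1.12% to 39.5% of clones lower. The other oxidation genes did the same, with 7 of 7 negative on each array and medians of -0.48 and -0.25, while the median of all genes was -0.04 and -0.03. These values reach the size of several line ratios of the same genes. The measures are unlike, since each self-self value is from 1 array without a dye swap and the line means average both orientations. Not turned, all 3 genes were on the positive side on both liver line arrays with Fob3b in green, opposite to the self-self arrays. With Fob3b in red all 3 were negative in liver pool pair 1 and 1 of 3 in pool pair 2.

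**Figure D3:**
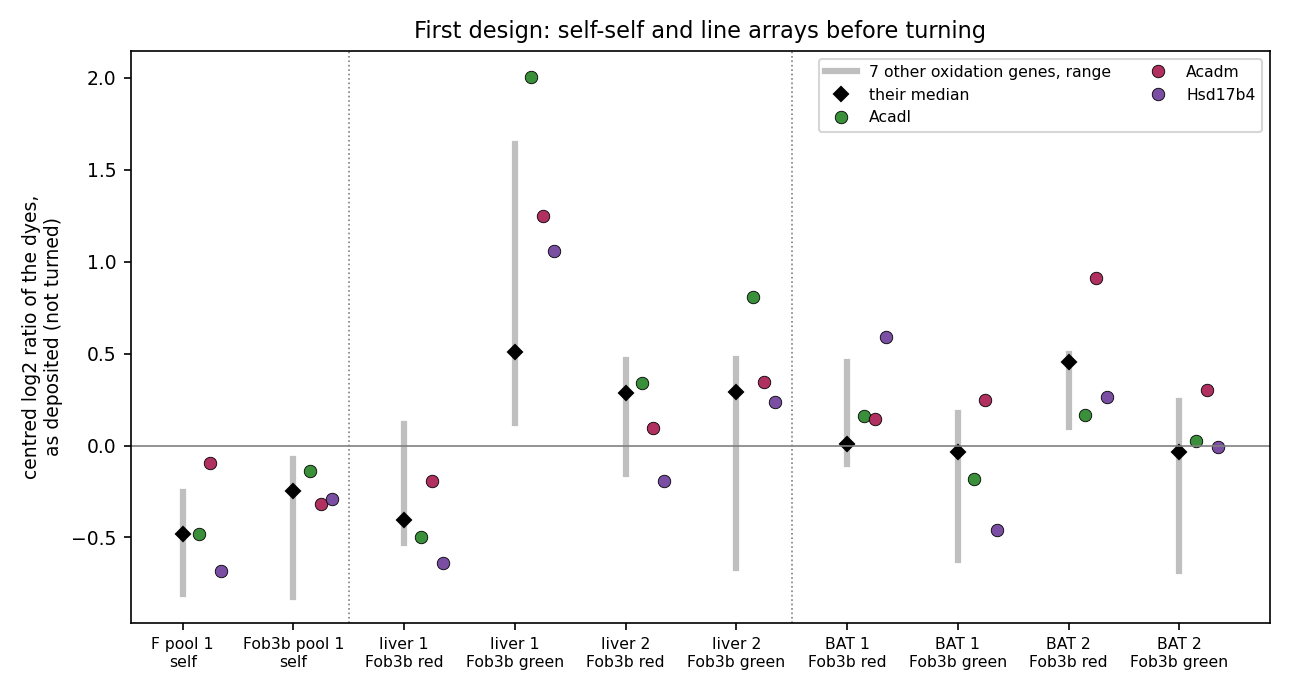
Centred dye log2 ratios, not turned, on the 10 first-design arrays for Acadl, Acadm and Hsd17b4 (coloured points) and for 7 other oxidation genes (grey bar for the range, diamond for the median). On the self-self arrays at the left all 3 genes lie from -0.68 to -0.10, and on liver pool pair 1 with Fob3b in green all 3 lie above 1.

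The rest of the pathway was taken from a list of carnitine shuttle, mitochondrial and peroxisomal oxidation, electron transfer and ketogenesis genes. Apart from the 5 genes above, 23 of 44 listed genes were measured, 7 of them by first-design clones and 16 by second-design clones. On the second design 15 of 16 were on the negative side in liver, with a median of -0.16 against 0.004 for all genes, and on the first design 6 of 7, with a median of -0.17 against -0.02. For brown adipose tissue 7 of 7 were positive on the first design, with a median of 0.18 against 0.03, and 13 of 16 on the second, with 0.14 against 0.03. The last median became -0.22 without centring, where all genes had -0.33. With limma on gene means 0 of these genes passed in any comparison, where 0.172% of all genes passed in liver on the second design and 0% in the others. At an unadjusted p under 0.05 there were 5 of the 16 in liver on the second design, against 402 of 4075 genes, and 0 of the 7 in either tissue on the first.

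**Figure D4:**
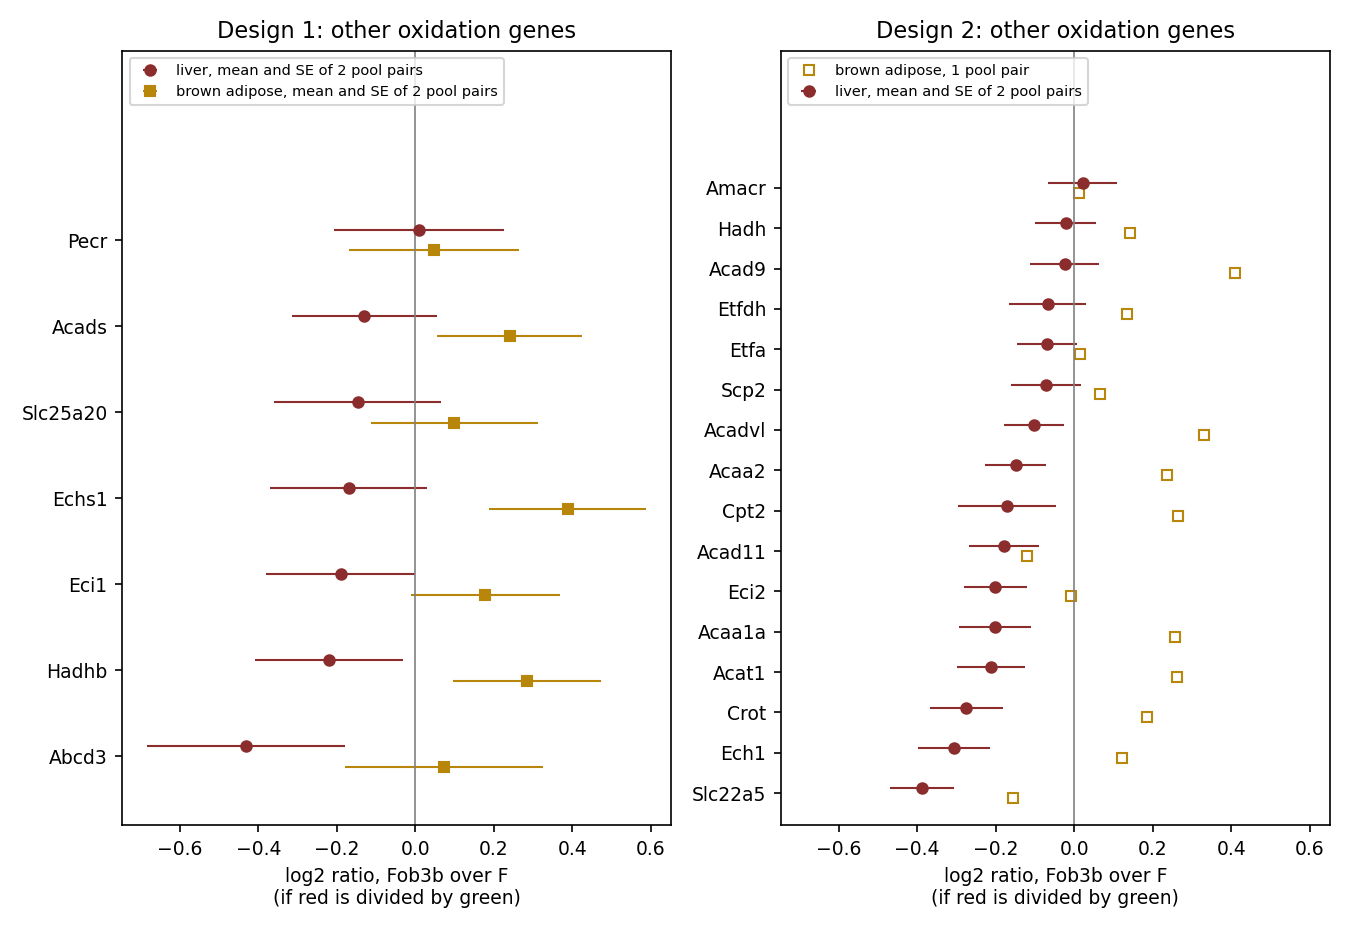
Log2 ratios of the other measured oxidation genes, 7 of the first design (left) and 16 of the second (right), in liver (circles) and brown adipose tissue (squares), with limma SE where 2 pool pairs were measured. On the second design 15 of 16 liver means lie below 0 and 13 of 16 brown adipose values above it.

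Slc22a5, the plasma membrane carnitine carrier, stood lowest of the list in second-design liver. It had -0.39 (SE 0.08, limma adjusted p 0.0745), with -0.47 and -0.31 in the pool pairs and all 4 direct arrays negative. On the crossed array with Fob3b in green, the 4 measured carnitine shuttle genes, Slc22a5 and Cpt1a among them, had -0.69 to -0.30. On that with Fob3b in red all 4 were positive, at 0.32 to 0.77. Of the 16 genes 6 had 4 negative liver arrays, against 9.15% of all genes. Crot, the peroxisomal carnitine octanoyltransferase, had -0.27 (SE 0.09, limma adjusted p 0.313). Cpt2, which reforms acyl-CoA inside the matrix, had -0.49 and 0.15 in the pairs. On the first design Slc25a20, the carnitine-acylcarnitine carrier, had -0.52 and 0.23. In the other tissue Cpt2 had 0.27, Crot 0.18 and Slc25a20 0.10, while Slc22a5 had -0.16 and was negative on both arrays.

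Among genes of the mitochondrial list with 1 sign on all 4 liver arrays of the second design were Eci2, an enoyl-CoA isomerase, at -0.20, the thiolase Acaa2 at -0.15 and the very-long-chain dehydrogenase Acadvl at -0.10. Their limma adjusted p ran from 0.443 to 0.766. Positive on both second-design brown adipose arrays were 9 of the 16 genes, against 36.6% of all genes. Among them Acad9, which also assembles respiratory complex I, had 0.41, Acadvl 0.33 and Acaa2 0.24. Acads, the short-chain dehydrogenase, was the 1 listed gene besides Hsd17b4 that was positive on all 4 first-design brown adipose arrays, at 0.24 (SE 0.18), where 3.23% of all genes were. The 3 listed genes on the negative side there on the second design, named after their values were seen, were Slc22a5, Acad11 at -0.12 and Eci2 at -0.01.

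Of the peroxisomal list Ech1, a dienoyl-CoA isomerase, had -0.31 (SE 0.09, limma adjusted p 0.217) in liver with all 4 arrays negative, and 0.12 in brown adipose tissue. The thiolase Acaa1a had -0.20 and 0.26. Abcd3, a carrier of the peroxisomal membrane, had -1.02 and 0.16 in the liver pairs of the first design. Amacr at 0.02 on the second design and Pecr at 0.01 on the first were the listed genes on the positive side in liver. Acat1, an acetoacetyl-CoA thiolase of ketone metabolism, was the 1 ketogenesis gene measured and had -0.21 in liver and 0.26 in brown adipose tissue.

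Pool pair 1 was farther from 0 than pool pair 2 in liver. The median of the 16 second-design genes was -0.27 in the first pair and -0.06 in the other, and that of the 7 first-design genes -0.39 and 0.06. Without pool pair 1 the first-design liver median was thus on the positive side. For brown adipose tissue of the first design the pairs gave 0.05 and 0.25. By array, the 16 genes had medians of -0.34 and -0.24 in liver pool pair 1 and -0.01 and -0.06 in pool pair 2, with 16 and 14 genes negative in the first pair and 8 and 9 in the second. On the crossed arrays the medians were -0.31 and 0.18, and with these added the liver median was -0.06. Between pools, 16 of 16 were negative for F pool 2 over F pool 1, with a median of -0.16, and 8 of 16 for Fob3b. Over all genes 2024 of 4075 were negative for F and 1912 of 4075 for Fob3b. Each count is from 1 array without a dye swap, so dye and pool cannot be told apart.

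The regulators measured were Ppargc1b, Esrra and Acacb, on the first design. In liver Ppargc1b, a coactivator, had -0.32 (0.13 and -0.76 in the pool pairs), Esrra 0.05 and Acacb, which makes the malonyl-CoA that inhibits Cpt1a, 0.04, with limma SE of 0.19 to 0.22. Their brown adipose values were 0.20, 0.10 and 0.05. Of known PPARα targets outside oxidation 3 were measured, and all 3 are named, after their values were seen. Plin2, a lipid droplet protein, had -0.39 (SE 0.11, limma adjusted p 0.188) in liver and 0.26 in brown adipose tissue on the second design. On the crossed arrays it had -0.65 and 0.75. Vnn1, a pantetheinase, had -0.56 (SE 0.20, limma adjusted p 1.0) in liver on the first design with all 4 arrays negative, and Acot2, an acyl-CoA thioesterase, -0.19.

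Markers of other cell types had these values on the same arrays. Of 15 listed hepatocyte markers 4 were measured on the first design, and all 4 were on the negative side in liver, with a median of -0.16. Albumin, Alb, had -1.26 and -0.22 in the pool pairs. Apoa1, Ttr and Fga had -0.65, -0.47 and -0.39 in pool pair 1 but 0.31, 0.16 and 0.11 in pool pair 2. By array the medians of the 4 markers ran from -1.04, with Fob3b pool 1 in green, to 0.42. None of the list was measured on the second design. The macrophage marker Lyz2 had -0.44 and the endothelial marker Cdh5 0.64 in first-design liver, while the macrophage marker Fcer1g had 0.04 and the erythroid markers Hbb-b1 and Alas2 -0.23 and -0.06 in second-design liver. Fcer1g had -0.19 in brown adipose tissue. Skeletal muscle markers in brown adipose tissue had opposite sides on the designs, with Tpm2 at -0.58 and Actn3 at -0.47 on the first, and Tpm2 at 0.73 and Mylpf at 0.69 on the second. The adipocyte markers Lpl and Pnpla2 had -0.25 and 0.11 there on the first design, and Pnpla2 had 0.07 on the second. In brown adipose pool pair 1, which both designs read, Tpm2 had -0.89 on the first and 0.73 on the second. Pnpla2 had -0.16 and 0.07 in that pair, while Acadl and Hsd17b4 were positive on both designs. Second-design brown adipose signs rest on channel labels that differ from the array descriptions. The cause was not tested. Of the brown adipocyte markers, Prdm16 and Elovl3 were measured, on the second design, at -0.15 and -0.06 in brown adipose tissue. The part of these in the ratios of the oxidation genes was not tested.

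The genes were chosen with liver means on one side and brown adipose means on the other, so a positive correlation between them over arrays of both tissues is built in by that choice. Over the 8 line arrays of the first design, Pearson's r was 0.82 for Acadl and Hsd17b4, 0.80 for Acadl and Acadm and 0.68 for Acadm and Hsd17b4. Over the 6 direct and 2 crossed arrays of the second it ran from 0.55 for Acadl and Cpt1a to 0.80 for Hadha and Hsd17b4. The arrays also share RNA pools and dye orientation, so these are descriptions, and the same holds for the genes nearest to them. Outside the lists, the genes nearest to the mean of the members on the first design were Csad at 0.99, Ddb1, Mcmbp, Elovl6 and Adh5, the last 4 at 0.96. On the second they were Nap1l4 at 0.98 and Nudt5, Acad8, Uros and Aldh3a2 at 0.96. Acad8, an acyl-CoA dehydrogenase of valine breakdown, had -0.07 in liver and 0.38 in brown adipose tissue, and Elovl6, a fatty acid elongase, had -0.01 and 0.36.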

How the data were processed

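The authors deposited, for every spot of an array, a log ratio of both dyes without intensities. How the authors made these log2 ratios before deposit, with any normalization, is not stated, nor are base and numerator. They were read as log2, and another base, such as a natural logarithm, is not excluded. Each design had 17280 spots, and the 2 spots of each of 7680 clones lie 160 rows apart in blocks of 360. The 1920 control spots per design were left out. Clones were named from the annotation supplied for the arrays, with 4749 and 4855 clones matching 1 gene, and 0 symbols needed updating through RefSeq. Arrays were centred on the median clone spot, spots averaged, ratios turned by channel label and dye-swapped arrays of a pool pair averaged. All clones, or for lists gene means, were fitted by tissue (limma 3.58.1, R 4.3.3) and tested two-sided, with Benjamini-Hochberg adjustment and a threshold of 0.05. Errors are limma's moderated SE, which draw on all clones (8.76 prior and 2 residual degrees of freedom for first-design clones, 7.63 and 1 for second-design clones). P-values measure only the spread between pool pairs. The SE of the fit of 4 liver pools measure array scatter instead. The steps were tested on simulated data. The 5 genes and the lists were chosen with earlier results of these data known. Named genes were the members, listed genes that passed, up to 6 listed oxidation genes per comparison with 1 sign on every array and the largest means, and the 5 genes per design nearest to the members; other listed genes were named after their values were seen. Alternatives covered centring, scaling, spots, dye orientation, replicates, tissue, pools and gene averaging.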

Additional observations from a re-analysis of the deposited data

Results flagged for a closer look

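Acadl had 1 of its 4 first-design brown adipose arrays apart from the rest. Pool pair 2 with Fob3b in green gave -0.026, and the others lay between 0.16 and 0.18. In a group of 4 like arrays chance flags about 1 in 20, and the members hold several such groups. These 4 arrays mix 2 pool pairs and both dye orientations, so they are not like draws. On pool pair 2 with Fob3b in red the 2 spots of the clone lay 0.12 apart.

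Hsd17b4 on the first design was negative on all 4 direct liver arrays and positive on all 4 brown adipose arrays, with a difference of -0.86. Hadha on the second design was negative on all 4 direct liver arrays and positive on both brown adipose arrays, with a difference of -0.62. The Hsd17b4 difference was part of the limma fit over all clones, where 0 of the 3 member clones passed. The Hadha difference was not tested, since the second design has 1 brown adipose pool pair. Both genes were chosen with these ratios in view. With blocks centred, Hsd17b4 had 0.73 and 0.04 on the first-design liver arrays of pool pair 2. Its first-design brown adipose arrays with Fob3b in green then had -0.33 and -0.04. Hadha then had 0.05 in liver pool pair 2 with Fob3b in red.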

How the results depend on the processing

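For the members, 189 values were recomputed, and 10 changed sign and 21 moved by more than the spread of their replicates. Among the 189 are settings that cannot change a member's mean in this balanced layout. They are arrays as replicates, the tissue fitted alone and the pool number as a replicate block. The share that stayed the same is therefore no measure of stability. Of the 7 liver means, the second-design Acadl changed sign in 4 alternatives, and the other 6 kept the negative side in all, with Cpt1a from -0.73 to -0.12, Hadha from -0.60 to -0.14 and Acadl on the first design from -1.41 to -0.08. In brown adipose tissue Acadm ran from -0.28 to 0.53 and Hsd17b4 on the first design from 0.13 to 0.60. Without centring the median gene shifted to -0.11 and 0.30 in liver and brown adipose tissue on the first design and to -0.36 and -0.33 on the second. The oxidation medians were then 0.45 in first-design brown adipose tissue, and -0.53 in liver and -0.22 in brown adipose tissue on the second. With Fob3b in green alone the first-design brown adipose median was 0.0208. With Fob3b in red alone it was 0.22, and the first-design liver median was 0.03 there.

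Counts of called clones moved more. For liver on the second design the 29 calls became 159 without centring, 75 with the second spot alone, 2 with arrays as replicates and 7 with genes averaged. They became 0 with blocks centred, arrays scaled, the first spot alone, either orientation alone, crossed-pool arrays added or 4 RNA pools fitted. On the first design, 1 brown adipose clone was called without centring and 4 with the tissue fitted alone. With Fob3b in red alone 47 were called in liver, 397 in brown adipose tissue and 9 for their difference. Leaving out a pool pair gave 42 to 140 calls in liver, 0 to 1 in brown adipose tissue and 0 to 95 for the difference. No count was possible for liver on the second design without a pool pair, since no residual degrees of freedom remain. With the pool number as a replicate block the difference had 0 calls as before; pool deviations of the tissues correlated at 0.38 over clones, and the labels do not say that equal numbers mark the same animals. The cause of these shifts was not tested.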
